A study of Mus musculus with 12 samples.

Results

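The transcripts described here are 558 putative noncoding RNAs of mouse kidney whose best database match is a conserved structure region predicted by RNAz. They were taken by that word in the match column of the deposited tables, which list 42452 transcripts in all, 10852 of them with a match. The matched entry is a conserved noncoding region labelled RNAz for 552 of them and an entry of a list of RNAz loci for the other 6. RNAz is a program that reads alignments of related genomes and looks for stretches whose predicted fold is more stable than that of like sequences and is kept between species. Such a hit is a computed prediction: it does not name a gene, and most hits in mammals have no known function. Paired bases that change together between species are the usual sign that a fold, rather than the letters, was kept.

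Kidney RNA came from 12 libraries of C57BL/6J mice in 6 groups of 2. Wild-type (WT) and Smad3-KO (KO) animals were each sampled normal and untreated, at day 5 of unilateral ureteral obstruction (UUO, in which the left ureter is tied off), and in anti-GBM disease, an inflammation of the glomeruli brought on by sheep globulin against mouse glomerular basement membrane, given at 60 μg per g of weight. Day 10 was recorded for the anti-GBM kidneys. The protocol calls that dose day 0 and describes a further intravenous injection 10 days later. How long after disease onset these kidneys were taken is therefore not clear from the protocol. Smad3 is a transcription factor that carries signals of TGF-β, a cytokine that drives renal scarring. The protocol speaks of groups of mice of both genders for UUO and of sham-operated controls, whereas the control samples are labelled normal (untreated); the sex of each animal is not given. Nothing states that the 2 libraries of a group are separate animals, so p-values measure the spread between these samples. Whole kidney was extracted, ribosomal RNA was removed and RNA over 150 bases was sequenced; fewer cells of a type and less RNA per cell cannot be told apart in such samples. Protein-coding markers and Smad3 itself were not analysed here, so neither the tissue label nor the knockout label was checked.

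The RNAz-matched transcripts were long and more often measurable than most. Their median length was 3202.5 bases, from 182 to 11477, close to the 3212 bases of the 1867 transcripts matched to EvoFold, another predictor of conserved RNA folds. The 8427 other matched transcripts had a median of 1577 bases, and the 31600 predicted transcripts without a match had one of 443. Enough reads for testing were found on 450 of the 558 (80.6%), against 72.1% of EvoFold-matched, 74.0% of other matched and 53.1% of predicted transcripts. All 12 tables listed 331 of them (59.3%), against 56.6% of EvoFold-matched, 49.6% of other matched and 13.8% of predicted transcripts. At the other end, 9 were listed in 1 library. The matched region itself may be a small piece of such a long transcript, and the tables give neither its place nor the transcript's place in the genome, so no sequence or coordinate is shown.

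Entries were shared. The 558 transcripts pointed to 395 entries: 278 entries had 1 transcript and 117 were shared by 280 transcripts, up to 6 for 1 entry. Transcripts with a shared entry may hold like sequence, and counting only uniquely mapped reads may divide reads unevenly between them. An Rfam family name stood beside 105 of the transcripts, spread over 43 families, and 453 had none. The most frequent families were SRP_euk_arch (9 transcripts), the RNA of the signal recognition particle that brings new secreted proteins to the membrane, and MIR821 and snoU90 (7 each). Several other labels, such as STnc500 or IRES_Cripavirus, belong to families built from bacterial or viral RNAs, so a label was read as a weak sequence likeness and not as a name.

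Libraries differed in depth and in how evenly reads lay along transcripts. Total reads ran from 4595261 to 7342937 per library, 408 to 521 RNAz-matched transcripts were listed in each, and 3.01% to 4.20% of reads fell on them. Evenness was measured as breadth, the covered length of a transcript divided by the length that randomly placed reads would cover, for transcripts over 500 bases with 20 to 200 reads. Over all such transcripts the median breadth was 0.448 in WT UUO 1, 0.285 in KO UUO 1 and 0.339 in KO anti-GBM 1, and between 0.637 and 0.911 in the other 9 libraries. For the RNAz-matched transcripts it was 0.246, 0.188 and 0.258 in those 3 libraries, and 0.356 to 0.543 in the other 9, so the same 3 lay lowest. Their median was below that of the other matched transcripts in each of the 12 libraries. EvoFold-matched transcripts shared this: their median was 0.435 in WT normal 1 and 0.418 in WT UUO 2, against 0.420 and 0.543 for RNAz-matched. Between 1000 and 3000 bases, where lengths are alike, the RNAz-matched median was 0.531 against 0.779 in WT normal 1, with a smaller gap in WT UUO 2 (0.840 against 0.862). The EvoFold-matched medians there were 0.651 and 0.736. The same 3 libraries also differed in 2 dominant transcripts that are not RNAz-matched. One, of mitochondrial length, took 1.95%, 3.68% and 3.03% of reads in WT UUO 1, KO UUO 1 and KO anti-GBM 1. In the other 9 libraries it took 17.0% to 35.7%. The other, a much shorter RNA, took 16.5%, 15.7% and 36.3%, against 1.70% to 6.90%. The part of this in the group differences or in the effect of scaling was not tested. Each of the 3 libraries of low breadth belongs to an injured group, so results are given with and without them.

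**Figure D1:**
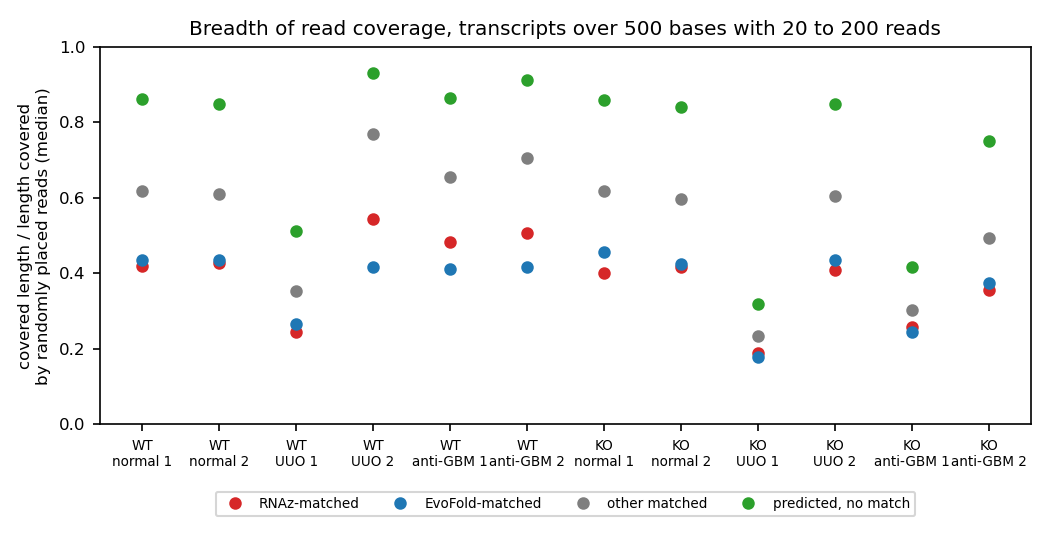
Median breadth of read coverage (covered length divided by the length that randomly placed reads would cover) in each of the 12 libraries, by class of database match, for transcripts over 500 bases with 20 to 200 reads. WT UUO 1, KO UUO 1 and KO anti-GBM 1 lie lowest in every class. RNAz-matched and EvoFold-matched transcripts both lie below the other matched ones in every library.

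Replicates were closest in WT normal and farthest apart in the injured KO groups. For RNAz-matched transcripts with 10 or more reads, the median absolute log2 difference between the 2 libraries of a group was 0.23 in WT normal, 0.39 in KO normal, 0.50 in WT anti-GBM, 0.73 in WT UUO, 0.75 in KO anti-GBM and 0.84 in KO UUO. The 3 widest groups are those with a library of low breadth.

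The most abundant RNAz-matched transcript per length was ncRNA_aligned_2299, 684 bases long, with a mean of 1464 RPKM (reads scaled to transcript length and library total, as deposited) over the 6 groups. Its RPKM was 1430.5 and 909 in WT normal, 459 and 1276 in obstructed WT kidney, 1610 and 1852 in WT anti-GBM, 2383 and 2416 in KO normal, 557 and 915 in KO UUO, and 755 and 3003 in KO anti-GBM. KO normal lay above WT normal in each library, while the 3 lowest values were the 3 libraries of low breadth. Next came ncRNA_aligned_2351 (507 bases, mean 859 RPKM) and ncRNA_aligned_3704 (535 bases), which carry the Rfam labels STnc500 and snoU2-25, the second a name for a small nucleolar RNA.

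Of the 12 highest by RPKM, ncRNA_aligned_2255 (2592 bases, mean 496 RPKM) and ncRNA_aligned_7805 (1865 bases, mean 374 RPKM) followed. ncRNA_aligned_859, at 6315 bases, had a mean of 334 RPKM and was the RNAz-matched transcript with the most reads in 8 of 12 libraries. The rest of the 12 had mean values from 198 to 272 RPKM. Reads were concentrated: between 15 and 30 transcripts held 50% of the reads on the 558, and the 12 of highest RPKM held 15.6% to 35.1%.

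**Figure D2:**
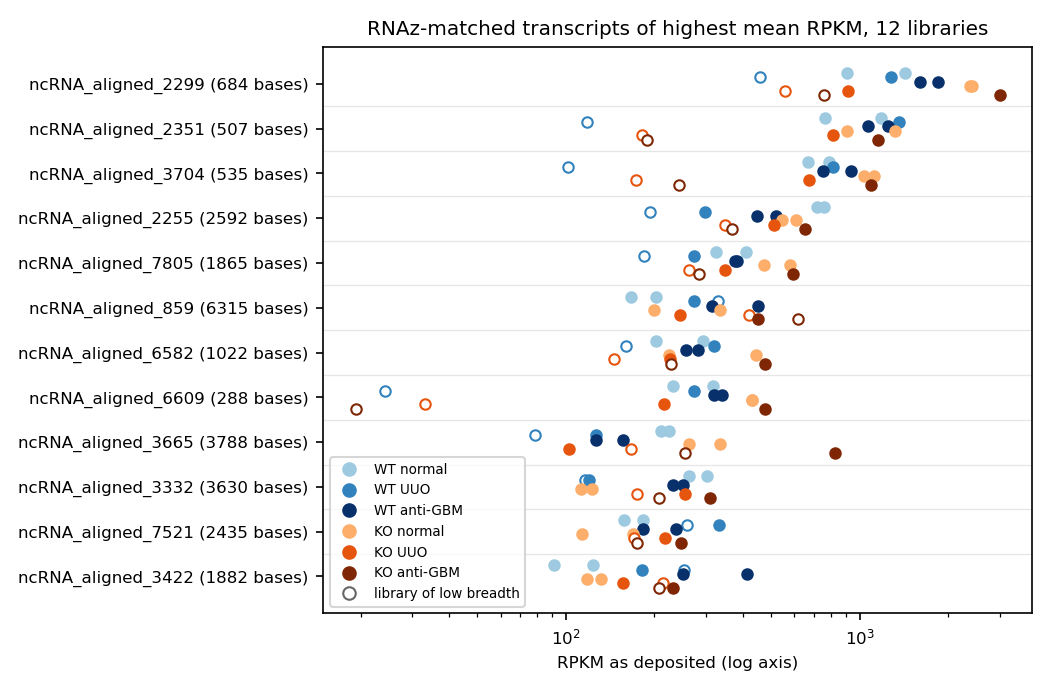
RPKM as deposited (log axis) of the 12 RNAz-matched transcripts with the highest mean RPKM over the 6 groups, 1 point per library, coloured by group, with the 3 libraries of low breadth as open circles. Open circles lie far to the left for ncRNA_aligned_2351, ncRNA_aligned_3704 and ncRNA_aligned_6609, all under 700 bases, and inside or to the right of the other points for the 6315 bases of ncRNA_aligned_859.

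Length went with the behaviour of the 3 libraries of low breadth. The 44 RNAz-matched transcripts under 700 bases held 1.69%, 2.11% and 2.72% of the reads on the 558 in WT UUO 1, KO UUO 1 and KO anti-GBM 1, and 4.84% to 10.0% in the other 9 libraries. The shortest of the 12 most abundant, ncRNA_aligned_6609 (288 bases), had 24.2, 33.0 and 19.2 RPKM in those 3 libraries and 216.6 to 478 RPKM in the rest. For ncRNA_aligned_2351 the 3 values were 118, 181 and 188 RPKM, against 765 to 1367 RPKM in the rest. The part of breadth in any group difference of these short transcripts was not tested.

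Levels between groups were compared on counts with edgeR's quasi-likelihood test, with all 12 libraries in 1 fit, the TMM scaling factors of edgeR and p-values adjusted by Benjamini-Hochberg over the 24816 transcripts tested. A transcript was called at an adjusted p under 0.05. Values per library are CPM, counts scaled to library totals corrected by TMM, and fold changes are log2 with an approximate standard error.

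In WT kidneys, obstruction gave the clearest differences. Of 450 RNAz-matched transcripts, 16 were called (3.56%, against 2.42% of all transcripts tested): 14 were lower (1.74% of all) and 2 were higher (0.681% of all). The share was larger in the other matched classes, at 4.46% of EvoFold-matched and 5.24% of other matched transcripts, and 1.17% of predicted ones. The 16 belong to 15 entries, and 11 of them had a mean of 100 CPM or more over all libraries. In each of the 14, both WT UUO libraries lay below both WT normal libraries. The 14 were chosen on these same libraries, so this describes them and adds no support.

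The most pronounced was ncRNA_aligned_7499, 4897 bases long and labelled with the Rfam family IRES_Cripavirus, a viral element for starting translation. It stood at 1423 and 1215 CPM in WT normal and at 111 and 121 CPM in WT UUO. The log2 fold change was -3.51 ± 0.52 with an adjusted p of 0.000669. WT anti-GBM had 255 and 305 CPM, so the 2 normal WT libraries were alone at the top. KO normal had 258 and 779 CPM, its lower library within the range of WT anti-GBM. Reads covered 97.4% of its length in WT normal 1 and 96.9% in WT UUO 2.

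The most abundant of the 14 per length was ncRNA_aligned_2255. Its CPM was 2591 and 2512 in WT normal, 343 and 474 in obstructed WT kidney, 1002 and 1006 in WT anti-GBM, 1749 and 2127 in KO normal, 624 and 1367 in KO UUO, and 1282 and 2305 in KO anti-GBM. The log2 fold change in WT UUO was -2.64 ± 0.43 with an adjusted p of 0.00131. WT UUO was the lowest group and WT normal the highest, and KO anti-GBM overlapped both other KO groups.

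Among the less abundant ones, ncRNA_aligned_4900 had 120 and 115 CPM in WT normal against 12.4 and 25.8 CPM in WT UUO, a log2 fold change of -2.62 ± 0.59 with an adjusted p of 0.0157. ncRNA_aligned_2376 had 15.4 and 9.54 CPM against 0.894 and 1.26 CPM, and its log2 fold change was -3.50 ± 0.92 with an adjusted p of 0.0411. ncRNA_aligned_1147 had 413 and 381 CPM against 37.7 and 93.9 CPM, with a log2 fold change of -2.59 ± 0.57 and an adjusted p of 0.0133. The remaining 9 lower ones, ncRNA_aligned_5122, ncRNA_aligned_3332, ncRNA_aligned_1957, ncRNA_aligned_1993, ncRNA_aligned_3665, ncRNA_aligned_7805, ncRNA_aligned_4443, ncRNA_aligned_7676 and ncRNA_aligned_4480, had log2 fold changes between -2.40 and -1.56.

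The 2 higher ones were rare in normal kidney. ncRNA_aligned_5173 (3467 bases) had 0 reads in all 4 normal libraries. It had 85 and 179 reads in obstructed WT kidney, 125 and 42 in WT anti-GBM, 138 and 182 in KO UUO, and 21 and 0 in KO anti-GBM. Its mean of 13.8 CPM in WT UUO was at least 42.9-fold higher than a floor of 3 reads over the WT normal group, with an adjusted p of 0.0400. Reads were spread over 94.9% of its length in WT UUO 2 and 94.4% in KO UUO 2, but over 46.6%, 15.1% and 11.8% in the 3 libraries of low breadth. ncRNA_aligned_18 (2345 bases) had 0.428 and 0.650 CPM in WT normal and 28.6 and 8.14 CPM in WT UUO, a log2 fold change of 5.04 ± 1.23 with an adjusted p of 0.0291; that is 2 and 3 reads against 192 and 97.

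**Figure D3:**
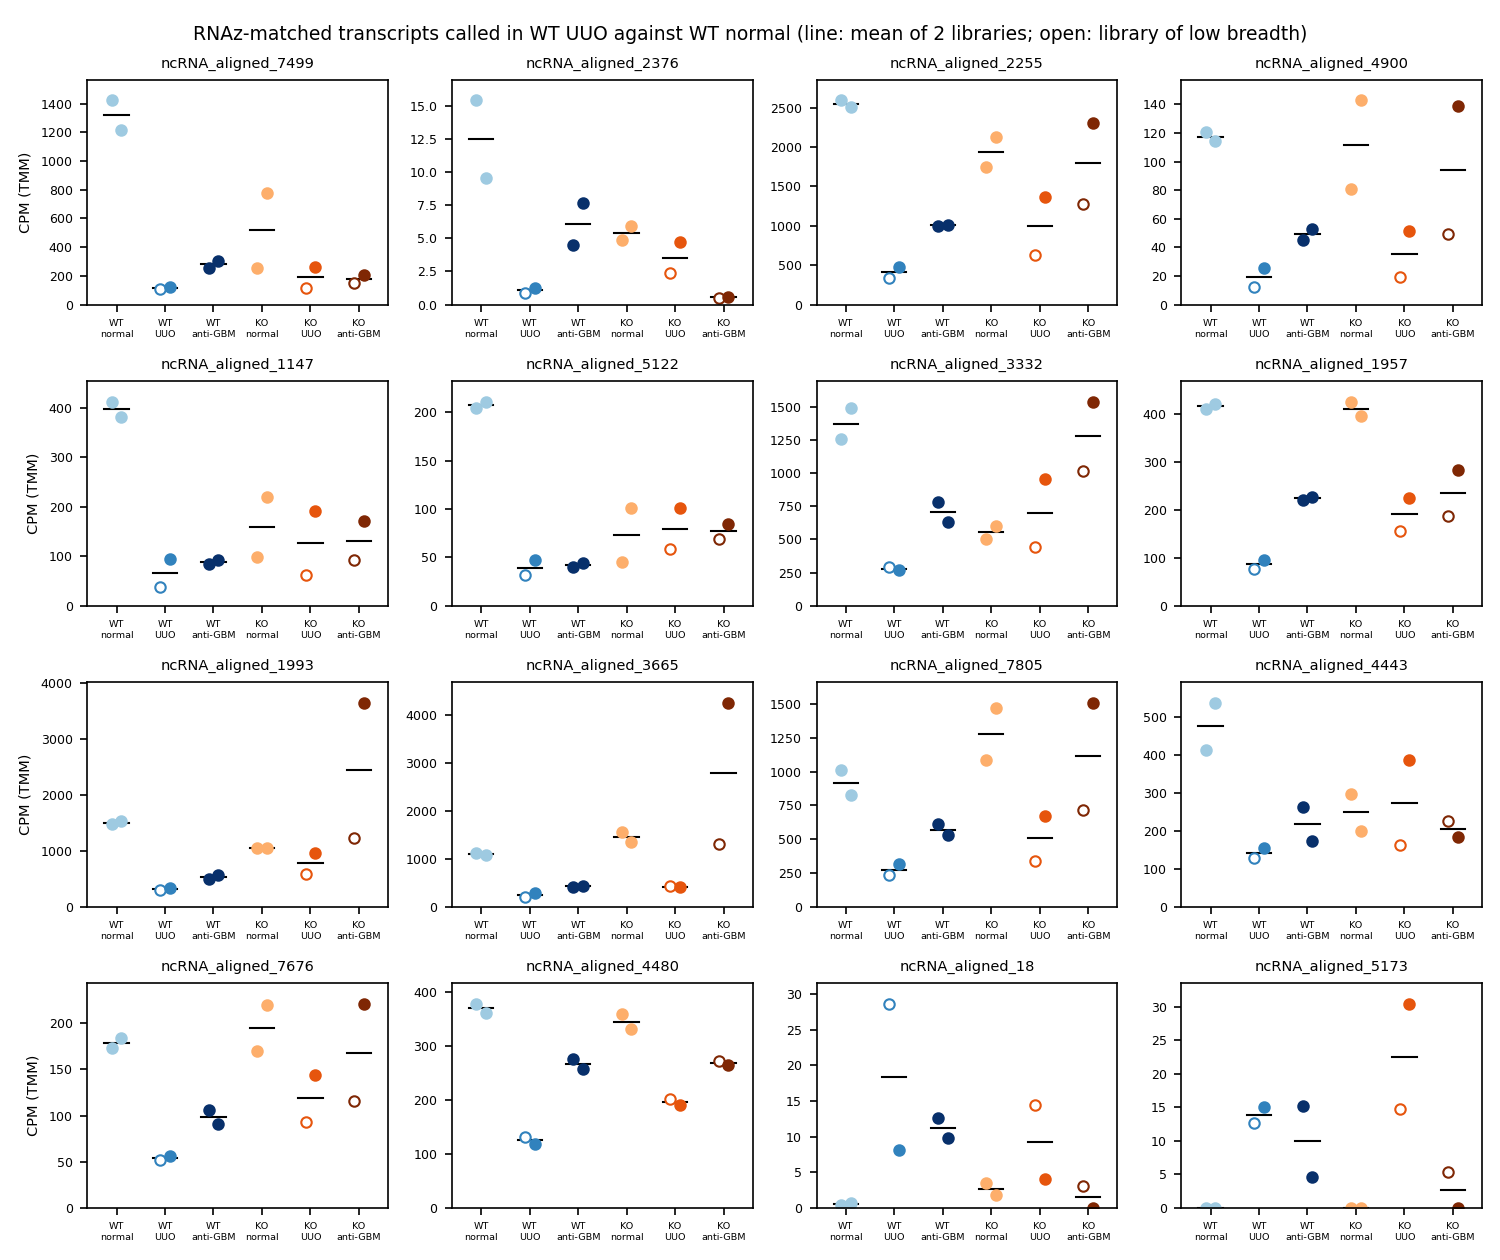
CPM (TMM scale, linear axis from 0) of the 16 RNAz-matched transcripts called between WT UUO and WT normal, in the 6 groups of 2 libraries; lines are group means and open circles the libraries of low breadth. In the 14 lower ones both WT UUO points lie under both WT normal points, and for ncRNA_aligned_5173 all 4 normal libraries are at 0.

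The direction of this comparison depended on scaling. With library size alone as the scale, 29 RNAz-matched transcripts were called, 26 higher (3.57% of all) and 3 lower (0.552% of all), and the median of all transcripts moved from 0.49 to 1.55. With DESeq2's size factors the calls were 3 higher (0.999% of all) and 10 lower (1.34% of all). Under library size alone, ncRNA_aligned_7499, ncRNA_aligned_2255 and ncRNA_aligned_3332 kept their calls among the 14, and all 14 kept a negative fold change. DESeq2's own test called 28 of 424 (7.26% of all), 11 higher (3.44% of all) and 17 lower (3.82% of all), and these included all 14 lower ones. Leaving out the 3 libraries of low breadth left 1 WT UUO library, with no replicate of its group. In that fit all 14 kept a negative log2 fold change, from -3.52 to -1.63.

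Leaving out 1 library at a time, 6 of the 14 lower calls and ncRNA_aligned_5173 held in all 12 fits. The calls of ncRNA_aligned_1147, ncRNA_aligned_4900 and ncRNA_aligned_5122 were lost without WT UUO 1, at adjusted p of 0.0619, 0.0791 and 0.0788. ncRNA_aligned_7805 was lost without WT UUO 1 or WT normal 1, at an adjusted p of up to 0.158. ncRNA_aligned_18 and ncRNA_aligned_4443 were lost without WT UUO 1 or either WT normal library, at up to 0.111 and 0.262, and ncRNA_aligned_7676 and ncRNA_aligned_4480 without any 1 of the 4 libraries compared, at up to 0.228 and 0.275. ncRNA_aligned_2376 was lost without any 1 of those 4, either KO normal library or WT anti-GBM 2, at up to 0.445.

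The 14 were chosen on WT UUO, so their values elsewhere are a description. Their fold changes were negative in 14 of 14 in WT anti-GBM, which shares the WT normal libraries, in 11 of 14 in KO UUO and in 10 of 14 in KO anti-GBM. Over all transcripts tested, fold changes were above 0 for 58.8% in WT anti-GBM, 50.1% in KO UUO and 37.8% in KO anti-GBM. For the RNAz-matched ones these shares were 36.7%, 47.6% and 48.9%. Among tested transcripts with a mean of 10 CPM or more, the mean over the injury comparisons was below 0 for 68.0%. Whether the 14 differ from these shares was not tested. The median log2 fold changes of the 14 were -2.28 for WT UUO, -1.19 for WT anti-GBM, -0.76 for KO UUO and -0.23 for KO anti-GBM. By edgeR with all 12 libraries, none of the 14 was called in the latter 3 comparisons. DESeq2 called ncRNA_aligned_1147, ncRNA_aligned_5122 and ncRNA_aligned_7499 lower in WT anti-GBM.

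In WT anti-GBM kidneys 0 of 450 RNAz-matched transcripts were called (0.0201% of all). At an unadjusted p under 0.05 there were 39 (6.56% of all). DESeq2 called 5 of 325 (2.14% of all): ncRNA_aligned_1147, ncRNA_aligned_5122 and ncRNA_aligned_7499 lower, and ncRNA_aligned_18 and ncRNA_aligned_2350 higher. Without the 3 libraries of low breadth, none of which is in this comparison, edgeR called 52 (7.17% of all).

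ncRNA_aligned_2350 (5742 bases) had 3.63 and 3.04 CPM in WT normal and 21.0 and 29.5 CPM in WT anti-GBM, with an adjusted p of 0.254 by edgeR and 0.00769 by DESeq2. Its KO values ran the other way, at 9.95 and 7.95 CPM in KO normal and 1.55 and 2.76 CPM in KO anti-GBM. ncRNA_aligned_18 had 12.6 and 9.80 CPM in WT anti-GBM, above both WT normal libraries, with an adjusted p of 0.283 by edgeR and 0.0153 by DESeq2.

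In KO kidneys neither model gave a call by edgeR. For KO UUO, 0 of 450 were called (0.0121% of all), 32 had an unadjusted p under 0.05 (5.98% of all), and DESeq2 called 2 of 370 (1.00% of all). These were ncRNA_aligned_5173, higher, with 0 reads in KO normal and 14.7 and 30.5 CPM in KO UUO, and ncRNA_aligned_2187, lower, with 1469 and 557 CPM in KO normal and 145 and 193 CPM in KO UUO. Their adjusted p-values were 0.238 and 0.0949 by edgeR and 0.0303 and 0.00455 by DESeq2. With 1 KO UUO library left after the libraries of low breadth were dropped, 8 were called (1.16% of all), with ncRNA_aligned_5173 and ncRNA_aligned_2187 among them.

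For KO anti-GBM, 0 of 450 were called (0.0524% of all), 46 had an unadjusted p under 0.05 (8.75% of all), and DESeq2 called 1 of 374 (0.796% of all). That was ncRNA_aligned_2313, at 2.64 and 4.54 CPM in KO normal and 31.7 and 15.0 CPM in KO anti-GBM, with an adjusted p of 0.436 by edgeR and 0.0315 by DESeq2. When the libraries of low breadth were left out, 6 were called (1.33% of all).

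Normal kidneys of the genotypes gave no call by either test. Of the RNAz-matched transcripts, 0 were called between KO and WT normal (0.0161% of all), 10 had an unadjusted p under 0.05 (2.22% of all) and DESeq2 called 0 of 343 (0.435% of all). Without the libraries of low breadth, none of which is normal, 6 were called (1.01% of all), all lower in KO. They included ncRNA_aligned_7499, ncRNA_aligned_3332, ncRNA_aligned_1147 and ncRNA_aligned_5122, which are among the 14 lower in WT UUO. ncRNA_aligned_3332 had 1254 and 1491 CPM in WT normal and 507 and 604 CPM in KO normal, so the genotypes did not overlap, with a log2 fold change of -1.31 ± 0.41.

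In obstructed kidneys 0 were called between KO and WT (0.00806% of all), 24 had an unadjusted p under 0.05 (6.08% of all) and DESeq2 called 0 of 395 (0.687% of all). The 9 libraries of higher breadth, 1 a group here, gave 6 calls (0.876% of all). Averaged over the 3 states, 0 were called between KO and WT (0.0403% of all), 33 had an unadjusted p under 0.05 (9.08% of all) and DESeq2 called 3 of 405 (0.667% of all), namely ncRNA_aligned_2187 and ncRNA_aligned_3665 higher and ncRNA_aligned_1152 lower in KO. The 9 libraries of higher breadth gave 33 calls (3.65% of all).

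In anti-GBM kidneys 2 of 450 RNAz-matched transcripts were called between genotypes (0.0201% of all), both higher in KO (0.0161% of all) and none lower (0.00403% of all). ncRNA_aligned_2187 (3226 bases) had 243 and 264 CPM in WT anti-GBM and 1581 and 2970 CPM in KO anti-GBM, a log2 fold change of 3.17 ± 0.51 with an adjusted p of 0.0275. It held in all 12 fits that left out 1 library. In WT normal it had 321 and 691 CPM and in KO normal 1469 and 557 CPM, so the normal groups overlapped.

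ncRNA_aligned_3665 (3788 bases) had 414 and 442 CPM in WT anti-GBM and 1305 and 4263 CPM in KO anti-GBM, a log2 fold change of 2.70 ± 0.46 with an adjusted p of 0.0315. This call was lost without KO anti-GBM 2, at an adjusted p of 0.0791. The 2 KO libraries differed from each other by more than the lower one did from WT, and KO anti-GBM 1 is a library of low breadth. ncRNA_aligned_1993 (5875 bases) had a like pattern, with 494 and 567 CPM in WT and 1226 and 3645 CPM in KO, and missed the threshold at an adjusted p of 0.0562.

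Here too scaling and test changed the count. DESeq2's size factors gave 3 higher (0.0685% of all) and 0 lower (0.0524% of all), and library size alone gave 2 higher (0.0201% of all) and 4 lower (0.842% of all). Under library size alone the median of all transcripts moved from -0.62 to -1.37. DESeq2's test called 14 of 414 (2.32% of all), 8 higher (0.749% of all) and 6 lower (1.57% of all). Without the libraries of low breadth 59 of 462 were called (7.44% of all), with adjusted p of 4.63e-14 for ncRNA_aligned_3665 and 8.78e-05 for ncRNA_aligned_2187. In that fit KO anti-GBM 2 is the lone library of its group and was assumed to vary like the other groups.

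**Figure D4:**
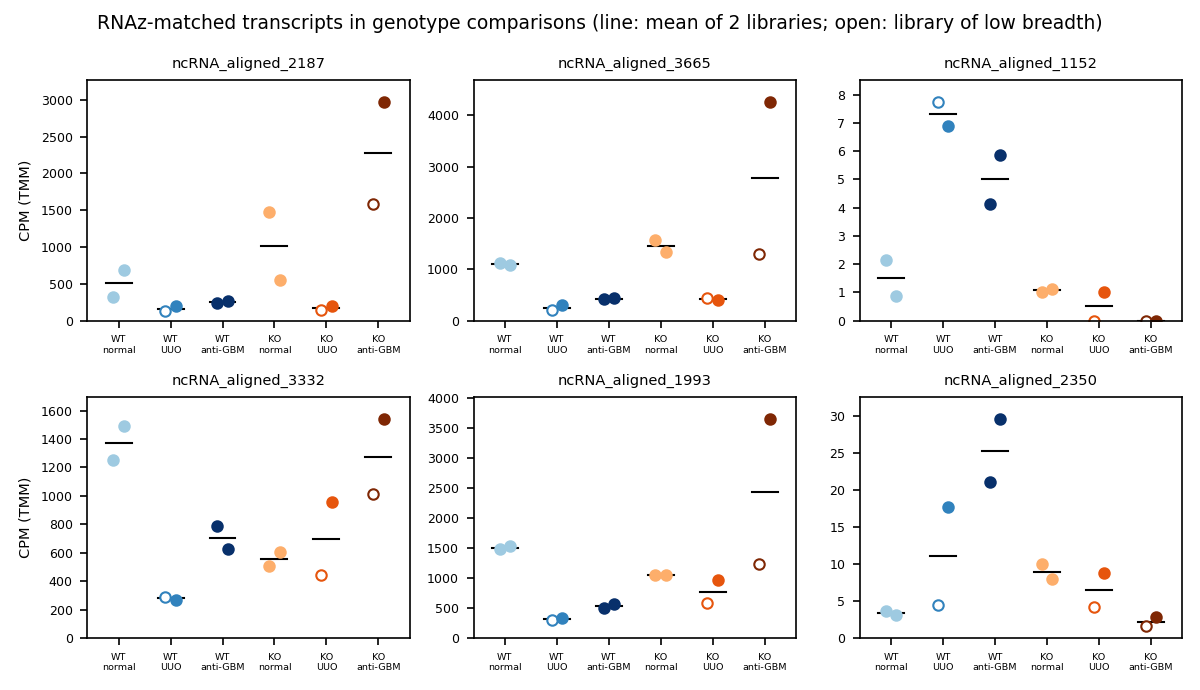
CPM (TMM scale, linear axis from 0) of 6 RNAz-matched transcripts called by edgeR or DESeq2 in a genotype comparison or in a test of whether the response differs by genotype, in the 6 groups of 2 libraries; lines are group means and open circles the libraries of low breadth. For ncRNA_aligned_2187 and ncRNA_aligned_3665 both KO anti-GBM points lie over both WT anti-GBM points, and KO anti-GBM 2 is the highest library.

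Whether the response to injury differed by genotype was tested directly. For UUO, 0 of 450 were called (0.0604% of all), 26 had an unadjusted p under 0.05 (5.63% of all), and DESeq2 called 1 of 343 (1.30% of all). This was ncRNA_aligned_3332: the WT values were 1254 and 1491 CPM in normal and 288 and 269 CPM in obstructed kidney, while the KO values were 507 and 604 CPM and then 440 and 955 CPM. The difference of the log2 responses was 2.63 ± 0.58, with an adjusted p of 0.102 by edgeR and 0.00695 by DESeq2. With the 9 libraries of higher breadth, WT UUO and KO UUO had 1 library each, and the difference for ncRNA_aligned_3332 was 3.19.

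For anti-GBM, 0 of 450 were called (0.0161% of all), 45 had an unadjusted p under 0.05 (10.0% of all), and DESeq2 called 2 of 400 (0.726% of all), ncRNA_aligned_1993 and ncRNA_aligned_2350. The WT values of ncRNA_aligned_1993 were 1482 and 1528 CPM in normal and 494 and 567 CPM in anti-GBM kidneys, whereas its KO values were 1043 and 1056 CPM and then 1226 and 3645 CPM. The difference of the log2 responses was 2.72 ± 0.61 for ncRNA_aligned_1993 and -4.95 ± 1.12 for ncRNA_aligned_2350, with adjusted p of 0.162 and 0.163 by edgeR and 0.0376 and 0.00425 by DESeq2. The 9 libraries of higher breadth gave 37 calls (5.13% of all).

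As a class, the RNAz-matched transcripts had medians close to those of the other matched ones. In WT UUO their median log2 fold change was -0.27, against -0.25 for EvoFold-matched, -0.21 for other matched and 0.89 for predicted transcripts, and 0.49 for all transcripts tested. In WT anti-GBM the medians were -0.27 for RNAz-matched and 0.30 for all. In KO UUO they were -0.06 and 0.00, in KO anti-GBM -0.01 and -0.37. Library size alone turned the RNAz-matched median positive in WT UUO, at 0.80 against 1.55 for all, in WT anti-GBM, at 0.44 against 1.03, and in KO UUO, at 0.51 against 0.58. In KO anti-GBM it was -0.08 against -0.44. In WT UUO and WT anti-GBM the class median lay below that of all transcripts under TMM, DESeq2's size factors and library size alone. Without the 3 libraries of low breadth the medians in WT UUO were -0.44 and 0.53.

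**Figure D5:**
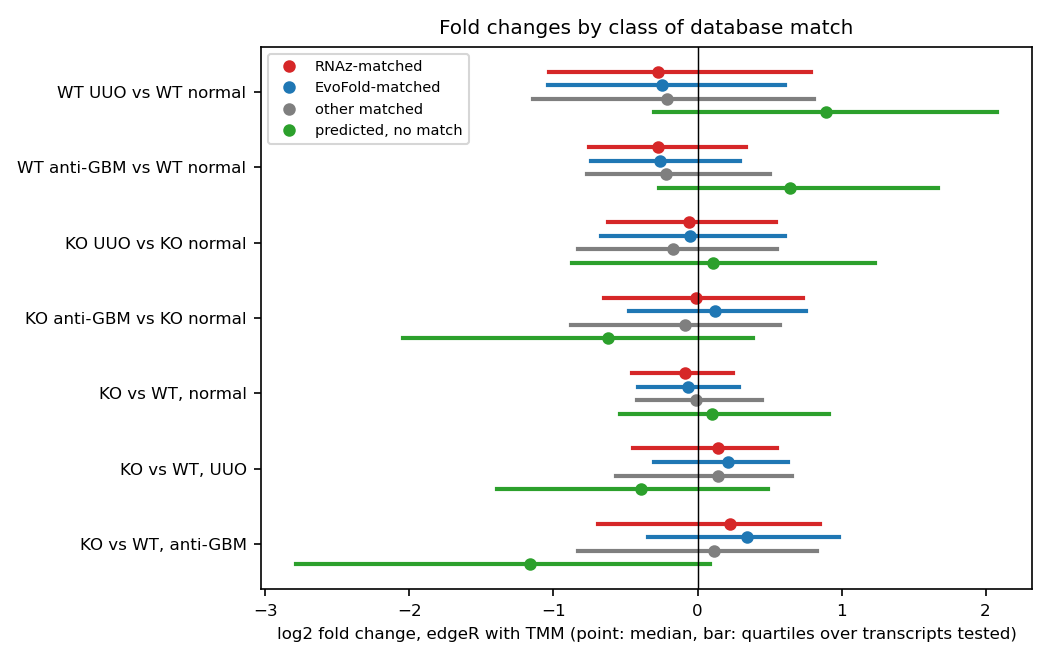
Median (point) and quartiles (bar) of log2 fold changes over the transcripts tested, by class of database match, in 7 comparisons between groups, from edgeR with TMM scaling. RNAz-matched, EvoFold-matched and other matched transcripts lie together, and predicted transcripts lie apart from them, to the right in both WT injury comparisons and to the left between genotypes in anti-GBM kidneys.

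Transcripts whose groups did not overlap were also counted, without a model but on the same TMM-scaled CPM. These counts therefore carry that scaling, and how they change under other scalings was not tested. Counts for the other matched classes are not given. Predicted transcripts are 16781 of the 24816 tested, with a median log2 fold change of 0.89 in WT UUO. The medians there were -0.27 for RNAz-matched, -0.25 for EvoFold-matched and -0.21 for other matched transcripts. A gap to all transcripts is thus not shown to be particular to the RNAz-matched ones. Across genotypes, the 4 UUO libraries lay above the 4 normal ones for 16 RNAz-matched transcripts (3.56%, against 5.61% of all) and below them for 57 (12.7%, against 7.20% of all). The 4 anti-GBM libraries lay above for 9 (2.00%, against 1.52% of all) and below for 21 (4.67%, against 3.35% of all). With the UUO libraries of higher breadth alone the counts were 58 above (12.9%, against 18.2% of all) and 87 below (19.3%, against 11.6% of all). With the anti-GBM libraries of higher breadth they were 21 above (4.67%, against 4.41% of all) and 25 below (5.56%, against 4.12% of all).

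All 8 injured libraries lay above the 4 normal ones for 2 transcripts (0.444%, against 0.415% of all), ncRNA_aligned_3857 and ncRNA_aligned_5879. The separation of ncRNA_aligned_3857, with a mean of 0.937 CPM over all libraries, rests on few reads. The injured libraries lay below for 8 (1.78%, against 1.20% of all): ncRNA_aligned_1587, ncRNA_aligned_1603, ncRNA_aligned_1604, ncRNA_aligned_1957, ncRNA_aligned_3568, ncRNA_aligned_4480, ncRNA_aligned_648 and ncRNA_aligned_7033. ncRNA_aligned_1957 (6619 bases) varied little in normal kidney, at 412 and 422 CPM in WT and 427 and 397 CPM in KO, against 77.5 and 95.2 CPM in WT UUO, 222 and 227 CPM in WT anti-GBM, 157 and 225 CPM in KO UUO and 187 and 283 CPM in KO anti-GBM. The 6 KO libraries lay above the 6 WT libraries for 0 RNAz-matched transcripts (0.0121% of all) and below for 0 (0.230% of all).

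Transcripts of 1 entry could be followed together. Of 4 transcripts with the entry of ncRNA_aligned_1147, 3 were listed in all 12 libraries: ncRNA_aligned_1147, ncRNA_aligned_5122 and ncRNA_aligned_3762. In WT normal they stood at 413 and 381 CPM, 204 and 211 CPM, and 96.0 and 111 CPM. In WT anti-GBM they stood at 83.2 and 91.9 CPM, 40.4 and 43.8 CPM, and 24.0 and 24.8 CPM, so each was lower in both libraries. KO normal was already below WT normal, at 99.3 and 220 CPM, 44.9 and 101 CPM, and 36.5 and 59.5 CPM. The entry they share means that they may not be independent. The entry of ncRNA_aligned_18 also has 4 transcripts, and ncRNA_aligned_3857 (934 bases) among them had 0 reads in all 4 normal libraries and 7.75 CPM in WT UUO 1, with 0.168 to 1.28 CPM in the other 7 injured libraries.

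Over the 4 injury comparisons, 218 RNAz-matched transcripts were tested and had a mean of 10 CPM or more. The mean of their 4 log2 fold changes was below 0 for 159 and above 0 for 59, with a median of -0.30. Over all 4315 tested transcripts of that level it was below 0 for 68.0%, against 72.9% of the RNAz-matched ones, and the median was also -0.30. This direction depended on scaling: under library size alone the mean was below 0 for 70 of the 218 and above 0 for 148, with medians of 0.27 for the RNAz-matched and 0.28 for all. With DESeq2's size factors it was below 0 for 136. The comparisons within a genotype share normal libraries. The lowest 6 were ncRNA_aligned_7499, ncRNA_aligned_5841, ncRNA_aligned_4900, ncRNA_aligned_3762, ncRNA_aligned_1147 and ncRNA_aligned_6609, with means from -2.18 to -1.33 on the TMM scale, and the highest 6 were ncRNA_aligned_5881, ncRNA_aligned_5226, ncRNA_aligned_243, ncRNA_aligned_2313, ncRNA_aligned_7488 and ncRNA_aligned_3661, with means from 2.59 down to 0.73.

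Several of the highest had their high values in the libraries of low breadth. ncRNA_aligned_243 (9047 bases) had 128, 97.4 and 137 CPM in WT UUO 1, KO UUO 1 and KO anti-GBM 1 and 7.59 to 14.3 CPM in the other 9 libraries. ncRNA_aligned_5881 (7222 bases) had 81.5, 33.2 and 42.3 CPM in those 3 and 1.02 to 6.72 CPM in the rest, with reads on 7.82% of its length in WT UUO 1. ncRNA_aligned_5226 (2264 bases) differed: it had 64.8 and 61.1 CPM in WT UUO against 1.92 and 1.52 CPM in WT normal, in a library of low and of higher breadth alike. Its log2 fold change there was 5.18 ± 1.51, with an adjusted p of 0.129 by edgeR and 0.000129 by DESeq2, while KO UUO had 8.73 and 0.669 CPM.

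The longest and shortest of the 558 closed the range. ncRNA_aligned_2676, at 11477 bases, had 9.65 to 26.3 CPM over the 12 libraries and was called in no comparison. ncRNA_aligned_9469, at 182 bases, was listed in the 4 UUO libraries, with 2.23 and 0.084 CPM in WT and 2.24 and 0.167 CPM in KO. The higher value in each genotype was the library of low breadth, and the lower value rests on few reads. No RNAz-matched transcript had 0 reads in all libraries of 1 genotype and 5 or more in each of the other.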

How the data were processed

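The authors' deposited tables give, per the file headers, uniquely mapped read counts per transcript, RPKM, the percent of each transcript covered and the mean coverage depth (a signal), with length and database match. Alignment with Bowtie 0.12.7 to mm9 is named in the submitters' processing notes; how transcripts were built is not given in the sources used here, and no strand setting is stated, so reads of antisense and overlapping transcripts are not separated. Deposited RPKM equalled reads per length and per total of listed reads (largest relative deviation 1.75e-14). Transcripts missing from a table were set to 0 counts. Counts, library totals from 4595261 to 7342937, went into edgeR 4.0.16 under R 4.3.3 (filterByExpr by group, TMM scaling, robust quasi-likelihood fit, 10 contrasts), checked on simulated data. DESeq2 1.42.0, other scalings, no filter, libraries left out and the 9 libraries of higher breadth were alternatives; transcripts to which DESeq2 gave no adjusted p were left out of its totals.

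The RNAz-matched transcripts and the rules were chosen with earlier results of these data known. Named are the 12 of highest mean RPKM, those called (if over 10, the 5 largest changes each way among group means of 1 CPM or more), the 6 highest and 6 lowest mean injury responses at 10 CPM or more, and the longest and shortest; others named, such as DESeq2 calls, non-overlapping transcripts and shared entries, were chosen after their values were seen. Floors (3 counts over a group) cover counting error only. Values after ± are approximate standard errors that include the spread between libraries. They were worked out as the absolute log2 fold change divided by the square root of edgeR's quasi-likelihood F.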

Additional observations from a re-analysis of the deposited data

How the results depend on the processing

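Numbers of RNAz-matched transcripts called are given for the 10 comparisons in the order WT UUO, WT anti-GBM, KO UUO, KO anti-GBM, then KO against WT in normal, UUO, anti-GBM and the mean of 3 states, then the genotype differences in the UUO and anti-GBM responses. The reported counts were 16, 0, 0, 0, 0, 0, 2, 0, 0 and 0. Of all transcripts tested, 2.42%, 0.0201%, 0.0121%, 0.0524%, 0.0161%, 0.00806%, 0.0201%, 0.0403%, 0.0604% and 0.0161% were called. DESeq2's test gave 28, 5, 2, 1, 0, 0, 14, 3, 1 and 2. It called 7.26%, 2.14%, 1.00%, 0.796%, 0.435%, 0.687%, 2.32%, 0.667%, 1.30% and 0.726% of all. Library size alone gave 29, 1, 0, 0, 0, 0, 6, 1, 0 and 1. Its shares of all were 4.12%, 0.314%, 0.254%, 0.0725%, 0.0363%, 0.0967%, 0.862%, 0.133%, 0.113% and 0.129%. DESeq2's size factors gave 13, 0, 0, 0, 0, 0, 3, 1, 0 and 0. Their shares of all were 2.34%, 0.0484%, 0.00806%, 0.0604%, 0.0242%, 0.0363%, 0.121%, 0.0484%, 0.0725% and 0.0524%. No filter on low counts gave 29, 5, 7, 3, 0, 1, 6, 4, 2 and 3. Without the 3 libraries of low breadth the counts were 74, 52, 8, 6, 6, 6, 59, 33, 18 and 37. Leaving out 1 library at a time gave 10 to 55, 0 to 11, 2 to 43, 0 to 12, 0 to 0, 1 to 9, 2 to 20, 2 to 17, 0 to 10 and 0 to 10. For WT UUO the count was 10 without WT UUO 1, 55 without KO UUO 1, 50 without KO UUO 2, 48 and 47 without KO anti-GBM 1 and 2, 43 without WT UUO 2, 35 and 29 without WT anti-GBM 1 and 2, and 28 without either KO normal library. Without KO UUO 2 it was 43 for KO UUO, 9 for KO against WT in UUO and 17 for the mean of 3 states. Without KO anti-GBM 2 it was 12 for KO anti-GBM, and without KO UUO 1 or KO UUO 2 it was 20 for KO against WT in anti-GBM. A fit with a group of 1 library assumes that it varies like the other groups, and its filter asks for reads in fewer libraries. Why leaving out a library raised most counts was not tested. For the fits with no filter and those leaving out 1 library, shares over all transcripts are not given. Their counts are therefore not read as results about the RNAz-matched transcripts. Of the alternatives for the 18 single calls, 264 kept the direction and the call, 42 kept the direction without the call, and none changed direction. With the 2 dominant transcripts left out of the total, the share of reads on RNAz-matched transcripts in WT normal went from 3.19% to 4.94%. Neither of the 2 is RNAz-matched, so a rise in each group was fixed by the arithmetic. No paired analysis was possible because replicate numbers only follow the order of deposit. Depth limits transcripts with few reads: 108 of the 558 were not tested.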
